A study of Mus musculus with 24 samples.

Results

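Genes of the presynaptic vesicle release machinery were followed in H3K4me3 maps of the mouse cerebral cortex: Snap25, Stx1a, Vamp2, Syt1, Cplx1, Cplx2, Sv2a, Rab3a and Syn2. They were chosen, with earlier results of these data known, as genes used by excitatory and inhibitory neurons alike. Each was taken by the counted regions that overlap one of its transcription start sites (TSSs) in the GENCODE M1 annotation of mm9. All 9 genes had a region, 1 each, so that the members are 9 of the 17993 regions counted, of which 13404 overlap the TSS of any gene.

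The mice were of the C57BL/6 strain, and both lines carry a FLAG-tagged histone H2B. In Rosa H2B-FLAG mice (labelled Rosa CAG-H2B-FLAG), the tagged histone is driven by the CAG promoter from the Rosa26 locus after germline recombination with Vasa Cre, so that nearly every cell carries it. In Camk2a H2B-FLAG mice (labelled Rosa26 CAG-floxed-pA-H2B-FLAG/ CaMKCreERT2), double-heterozygous males received tamoxifen at 1 mg per day for 5 days at 8 weeks of age and were killed a month later, which restricts the tagged histone to Camk2a-positive neurons. The paper puts the share of labelled cells at about the limit of its method. In its mixtures of cultured cells beyond that limit, tagged and untagged chromatin were recovered in comparable amounts. Carry-over of untagged chromatin was not measured here. Single ChIP-Seq used an antibody to H3K4me3 on the chromatin of all cells, whereas tandem ChIP-Seq (tChIP-Seq) first purified FLAG-bearing chromatin and then H3K4me3. Each of the 4 groups had 3 libraries. The protocol pools the tissue of 2 animals for a lysate, and which libraries share a lysate is not given in the sources used here. Rosa tChIP-Seq differs from Rosa single ChIP-Seq by the FLAG step while the tag is present in almost all cells in that line. The brains were from adult mice, but the exact age, the sex and any tamoxifen treatment of the Rosa mice are not given in the sources used here, so the line cannot be told apart from these.

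H3K4me3 is a histone mark found around the start sites of active genes. At a presynaptic terminal, the SNARE proteins on the vesicle and on the plasma membrane zip together to fuse the membranes, synaptotagmin 1 senses the calcium that enters with an action potential, and complexins clamp and promote the assembled SNARE complex. Synapsins hold vesicles in reserve pools, Rab3 proteins guide them to release sites, and SV2 proteins are integral glycoproteins of the vesicle membrane. Neurons of both transmitter classes use this machinery, whereas glial and endothelial cells use most of its neuronal isoforms little.

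Total counts were between 6316125 and 8644574 per library in Rosa single ChIP-Seq, between 1457261 and 1828371 in Rosa tChIP-Seq, between 4063200 and 4233144 in Camk2a single ChIP-Seq, and between 2709729 and 3049130 in Camk2a tChIP-Seq. The Rosa tChIP-Seq libraries were thus the shallowest, with 32 to 270 counts at any one member region. Values are given as CPM, the count relative to the library total scaled by its TMM factor, unless stated, and called differences have an adjusted p under 0.01 in the quasi-likelihood test of edgeR with Benjamini-Hochberg adjustment over all 17993 regions. Defining markers of cortical cells were covered: Slc17a7, the vesicular glutamate transporter of cortical excitatory neurons, had 99.2 ± 2.94 CPM in Rosa single ChIP-Seq (SD, n = 3), Gad1, which makes GABA, had 28.2 ± 1.08 CPM, and the astrocyte gene Aldh1l1 had 13.6 ± 1.87 CPM. Slc32a1, the vesicular GABA transporter, had no region at a TSS, and neither did 9 of the 10 listed microglial genes.

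The regions themselves differed in extent. Syt1 lies on chromosome 10 and its region (chr10:108442003-108448877, mm9) spanned 6875 bp, reaching 6035 bp into the gene from the most upstream TSS. Snap25 had a region of 6072 bp (chr2:136539161-136545232), of which only 28 bp lay upstream of the TSS. Both belong to the widest regions at TSSs, being wider than 99.6% and 98.9% of them, against a median width of 2060 bp.

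The other regions were narrower. The region of Syn2 (chr6:115084327-115088506) had 4180 bp and also holds the TSS of Gm17733, so that the 2 genes cannot be told apart there. Vamp2 (chr11:68901392-68904913) and Stx1a (chr5:135498900-135502368) had regions of 3522 and 3469 bp. Sv2a (chr3:95984429-95987432), Cplx1 (chr5:108977267-108979937), Rab3a (chr8:73278418-73280423) and Cplx2 (chr13:54472584-54474410) had 3004, 2671, 2006 and 1827 bp, and the last 2 were below the median. Every region covered the promoter side and the first part of the gene, from 1.18% of the length of Syt1, a gene of 513 kb, to 75.0% of Vamp2, a gene of 3.9 kb.

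**Figure D1:**
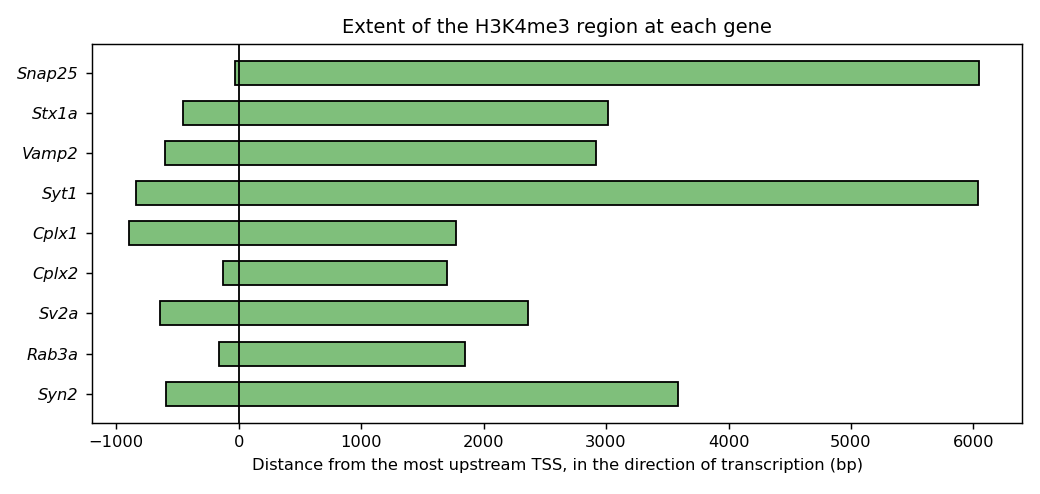
Extent of the H3K4me3 region at each of the 9 genes, as the distance in bp from the most upstream annotated TSS in the direction of transcription (negative values are upstream). The regions of Syt1 and Snap25 reach 6035 and 6043 bp into the gene, and the others between 1697 bp (Cplx2) and 3586 bp (Syn2).

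Base composition also varied among the members. The wide regions of Snap25 and Syt1 had a GC content of 40.6% and 41.8%, lower than in all but 0.88% and 1.26% of regions at TSSs, where the median was 54.2%. Cplx2 stood at the other end with 63.4%, and Rab3a and Cplx1 had 59.1% and 57.6%. The ratio of observed to expected CpG was between 0.225 for Sv2a and 0.599 for Rab3a, below the median of 0.605 in each of the 9.

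Promoter sequence upstream of the TSS is shown for a gene whose H3K4me3 differed strongly between the lines in tChIP-Seq (Cplx1), another with a strong difference and a wide region (Syt1), one with a smaller difference (Stx1a) and one with no called difference (Rab3a). The bases come from RefSeq (GRCm38.p6), were located in mm9 by an exact and single match, and stop before the first base transcribed in either annotation. Capitals mark GC boxes, searched as GGGCGG on both strands, and the lines run 5′ to 3′ along the gene. Cplx1 is at chr5:108979047-108979296 on the minus strand, Syt1 at chr10:108448039-108448281 on the minus strand, Stx1a at chr5:135499102-135499351 on the plus strand and Rab3a at chr8:73278352-73278577 on the plus strand.
Cplx1: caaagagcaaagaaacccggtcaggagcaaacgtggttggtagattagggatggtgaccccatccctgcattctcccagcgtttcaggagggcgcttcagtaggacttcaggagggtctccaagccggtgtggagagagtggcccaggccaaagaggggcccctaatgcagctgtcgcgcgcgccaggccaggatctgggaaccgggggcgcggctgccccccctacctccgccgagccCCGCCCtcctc
Syt1: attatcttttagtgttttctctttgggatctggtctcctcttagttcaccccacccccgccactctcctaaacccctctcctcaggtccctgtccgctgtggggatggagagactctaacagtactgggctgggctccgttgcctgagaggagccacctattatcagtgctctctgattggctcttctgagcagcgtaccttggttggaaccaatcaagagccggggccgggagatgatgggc
Stx1a: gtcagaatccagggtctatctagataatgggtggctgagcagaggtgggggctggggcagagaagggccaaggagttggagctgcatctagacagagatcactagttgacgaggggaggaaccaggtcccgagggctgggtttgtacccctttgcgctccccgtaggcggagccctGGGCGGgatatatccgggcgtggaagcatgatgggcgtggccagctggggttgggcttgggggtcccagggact
Rab3a: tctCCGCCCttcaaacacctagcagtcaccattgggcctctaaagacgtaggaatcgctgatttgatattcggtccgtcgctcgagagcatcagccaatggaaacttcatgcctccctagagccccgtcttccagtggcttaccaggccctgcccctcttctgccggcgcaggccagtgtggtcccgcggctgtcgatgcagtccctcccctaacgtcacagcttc

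The printed stretches of Cplx1, Stx1a and Rab3a held 1 GC box each, and that of Syt1 held none. Over the full windows of 300 bases, from 250 upstream to 50 downstream of the RefSeq start, 1 GC box was found for Syt1 and Sv2a, 2 for Cplx1 and Rab3a and 3 for Stx1a and Syn2, while 35.7% of 32851 mouse promoters held at least 1. These are the windows nearest the GENCODE M1 start. A further RefSeq start of Syn2, of Rab3a and of Syt1 had no GC box in its window, and neither had the RefSeq start of Cplx2. A cyclic AMP response element (TGACGTCA, in 1.79% of promoters), a TATA box (TATAAA, in 13.6%) and the left and right parts of the RE1 element bound by the repressor REST (TTCAGCACC in 0.371%, GACAGCGCC in 0.326%) were in none of these windows. The whole member regions, which are longer, did hold some of them. The left part of RE1 was in the regions of Snap25, Stx1a, Cplx1 and Cplx2, while 14.4%, 5.53%, 3.74% and 2.13% of regions at TSSs in their respective classes of length held it (at least 5000, 3000 to 5000, 2000 to 3000 and 1000 to 2000 bp). The right part was in the region of Cplx1, as in 3.51% of its class, and the cyclic AMP response element in that of Snap25, as in 10.9% of its class. A TATA box was in the regions of Snap25, Stx1a, Vamp2, Syt1 and Syn2, in whose classes 84.5% (Snap25 and Syt1) and 72.3% (the others) held one. These matches are descriptions of letters and not of binding. Windows for Snap25 and Vamp2 were not analysed here.

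The annotations differ for Cplx2. Its single TSS in GENCODE M1 is in the member region, whereas the RefSeq start lay 74788 bp upstream, in a separate region (chr13:54397259-54399726, 2468 bp) with no GENCODE M1 TSS, shown because its behaviour is set beside that of the member below. The 250 bases before this start, at chr13:54397675-54397924 on the plus strand, held no GC box.
Cplx2, upstream start: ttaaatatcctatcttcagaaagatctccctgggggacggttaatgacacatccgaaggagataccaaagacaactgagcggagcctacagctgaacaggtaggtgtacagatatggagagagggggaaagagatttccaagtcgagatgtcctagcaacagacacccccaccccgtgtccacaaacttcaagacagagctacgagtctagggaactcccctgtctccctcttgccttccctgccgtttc

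The first comparison asked which start sites carry more H3K4me3 in chromatin purified from Camk2a-positive neurons than in chromatin purified from nearly all cells. In Camk2a against Rosa tChIP-Seq, 7 of the 9 presynaptic regions rose and none fell, against 17.0% of all regions called higher and 14.6% called lower. Since the members were chosen with earlier results known, these counts do not test the set. Snap25, Cplx1, Cplx2 and Syt1 rose the most, between 2.38 and 2.91 times, Sv2a, Syn2 and Stx1a rose between 1.41 and 1.77 times, and Vamp2 and Rab3a had folds of 1.03 and 1.04 that were not called. The median log2 fold change of the members was 0.82, beside −0.003 over all regions. These rises are relative to Rosa tChIP-Seq, which had the lowest mean of the 4 groups for each of the 9 genes. Against single ChIP-Seq of the Camk2a line, only 2 members, Cplx1 and Syn2, were called higher in Camk2a tChIP-Seq. Snap25 had 187.2 CPM in Camk2a tChIP-Seq, 177.1 CPM in Camk2a single ChIP-Seq and 64.3 CPM in Rosa tChIP-Seq. In bulk chromatin, fewer cells of a type and less mark per cell cannot be told apart.

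Among the SNARE genes, Snap25, whose product contributes a pair of helices from the plasma membrane, had 65.7, 65.6 and 61.7 CPM in the 3 Rosa tChIP-Seq libraries and 181.8, 190.2 and 189.7 CPM in those of Camk2a. The groups lay far apart, and the log2 fold change was 1.54 ± 0.079 (SE), with an adjusted p of 2.99e-29. Stx1a, syntaxin 1A of the same membrane, had 62.1, 68.6 and 75.5 CPM in Rosa and 96.8, 90.2 and 100.2 CPM in Camk2a. These did not overlap either, and the log2 fold change was 0.49 ± 0.092 with an adjusted p of 4.21e-06.

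Vamp2, the SNARE of the vesicle (synaptobrevin 2), differed from both. It had 140.9, 133.0 and 156.1 CPM in Rosa tChIP-Seq and 157.1, 135.0 and 145.9 CPM in Camk2a tChIP-Seq. The groups overlapped, the log2 fold change was 0.04 ± 0.070 with a 95% interval from −0.10 to 0.18, and the adjusted p was 0.689. This value was −0.03 when library totals replaced the TMM factors, −0.01 without the second Rosa library and −0.02 without the first Camk2a library.

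Syt1, the calcium sensor of fast release, had 85.0, 78.7 and 70.2 CPM in Rosa tChIP-Seq and 188.0, 189.5 and 180.1 CPM in Camk2a tChIP-Seq. All Camk2a libraries were above all Rosa libraries, with a log2 fold change of 1.25 ± 0.076 and an adjusted p of 4.58e-25. The neighbouring regions of Syt1 were 125393 and 522748 bp away, so that no other counted region shares its surroundings.

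Both complexins rose. Cplx1 had 31.8, 36.4 and 38.7 CPM in Rosa tChIP-Seq and 103.0, 102.1 and 97.2 CPM in Camk2a tChIP-Seq. The lowest Camk2a library was far above the highest Rosa library, and the log2 fold change was 1.52 ± 0.106 with an adjusted p of 1e-21. Cplx2 had the lowest level of the 9 in Rosa tChIP-Seq, with 24.0, 23.3 and 21.0 CPM, resting on 46, 39 and 32 counts, against 47.9, 60.6 and 68.5 CPM in Camk2a tChIP-Seq. Its groups did not overlap, although its Camk2a libraries spread widely for their mean of 59.0 CPM, with an SD of 10.4 CPM, and the log2 fold change was 1.36 ± 0.143 with an adjusted p of 1.57e-13.

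The upstream Cplx2 region at the RefSeq start differed in size of response. It had 77.2, 93.6 and 91.8 CPM in Rosa tChIP-Seq and 96.8, 116.6 and 98.3 CPM in Camk2a tChIP-Seq. The groups did not overlap but were close, and the log2 fold change of 0.26 ± 0.087 was not called (adjusted p of 0.0119). The interval of this region, from 0.09 to 0.43, and that of the member region, from 1.08 to 1.65, had no value in common, although the difference between the regions was not itself tested.

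Of the vesicle proteins, Sv2a had 62.1, 57.9 and 63.6 CPM in Rosa tChIP-Seq and 108.6, 113.7 and 101.3 CPM in Camk2a tChIP-Seq. The 2 groups were separate, with a log2 fold change of 0.82 ± 0.091 and an adjusted p of 1.05e-12. Syn2, synapsin II, had 90.8, 96.0 and 93.2 CPM against 142.1, 146.5 and 144.8 CPM, again without overlap, and a log2 fold change of 0.64 ± 0.075 with an adjusted p of 1.48e-11. Rab3a, the vesicle GTPase, had 56.9, 63.8 and 59.0 CPM against 63.0, 62.1 and 61.5 CPM, so that its Camk2a libraries lay within the range of its Rosa libraries. Its log2 fold change of 0.06 ± 0.103 had a 95% interval from −0.14 to 0.27 and an adjusted p of 0.666, and it was −0.01 when library totals were used.

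**Figure D2:**
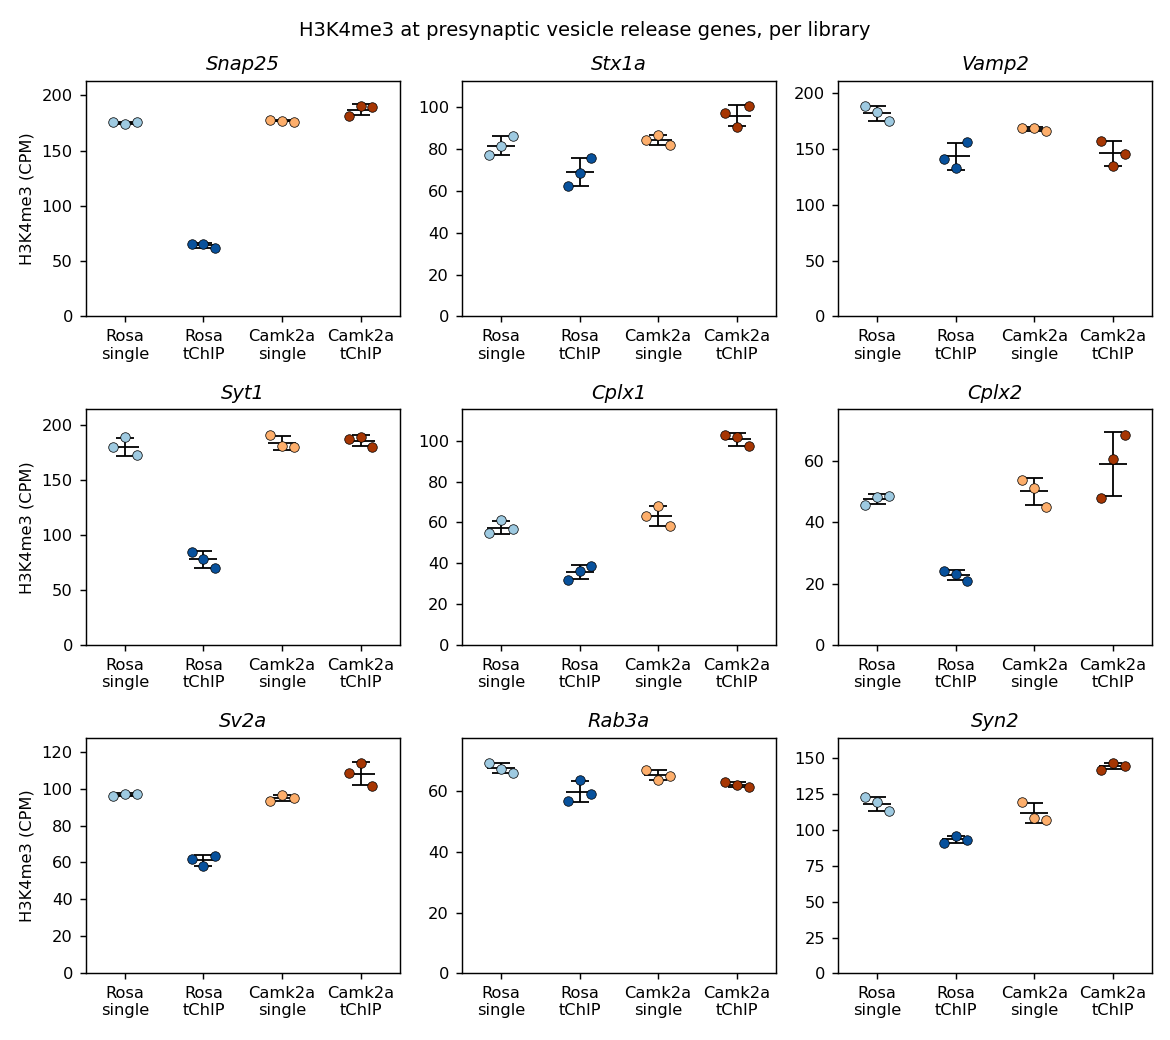
H3K4me3 in CPM at each gene (y axis, from 0) in the 4 groups (x axis). Points are single libraries, horizontal bars the mean of 3 and whiskers the SD, and Rosa tChIP-Seq holds the lowest mean for each of the 9 genes, with Snap25 at 64.3 CPM against 175.2 to 187.2 CPM in the other groups.

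Higher calls in this comparison were more frequent in well covered and wide regions, and most members are of that kind. All 9 had a total count above the median region, and among the 8836 regions with at least as many counts as the lowest member, 21.6% were called higher and 8.88% lower. Among regions at TSSs of 3000 to 5000 bp, the class of Stx1a, Vamp2, Sv2a and Syn2, 39.9% were called higher with a median log2 fold change of 0.12. In the 432 regions of at least 5000 bp, the class of Snap25 and Syt1, 56.5% were called higher with a median of 0.28, which is below the values of 1.54 and 1.25 of those genes. Of the 509 regions at TSSs with a GC content under 45%, which also hold Snap25 and Syt1, 38.7% were called higher.

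Neighbouring regions had values of their own. The nearest counted region on the left of Snap25, 33316 bp away, fell by 0.89 on the log2 scale in Camk2a against Rosa tChIP-Seq (adjusted p of 1.96e-06 in edgeR), and Mkks on the other side had −0.06. The regions of Sf3b4 and Bola1, which flank Sv2a at 6956 and 13024 bp, had −0.12 and −0.66, and those on either side of Cplx1 had 0.24 (Pcgf3, called with an adjusted p of 0.008) and −0.02 (Gak). Beside Vamp2, the region of the clock gene Per1 at a distance of 3670 bp had a log2 fold change of 0.05. Within the Syn2 gene, 112579 bp from the Syn2 region, the region of Timp4 had −2.96 (adjusted p of 6.23e-12), and that of Dnajc30 and Wbscr22, 36703 bp from Stx1a, had −0.30 (adjusted p of 0.00787).

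The second comparison set the lines side by side in single ChIP-Seq, where the chromatin of all cells of either line enters. No presynaptic region was called here, against 0.928% of all regions called higher and 1.22% called lower by edgeR. In edgeR 1 member, Vamp2, had an unadjusted p under 0.05 (0.00374), and the DESeq2 Wald test also called none. The log2 fold changes were between −0.12 for Vamp2 and 0.13 for Cplx1.

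Single libraries were close to each other. Snap25 had 176.0, 174.0 and 175.6 CPM in Rosa and 177.5, 177.3 and 176.4 CPM in Camk2a single ChIP-Seq. The groups touched without overlapping, but the log2 fold change was only 0.01, with a 95% interval from −0.07 to 0.10. Vamp2 had 188.2, 183.1 and 174.9 CPM in Rosa and 168.9, 168.7 and 165.7 CPM in Camk2a, the only other member whose groups did not overlap, with a log2 fold change of −0.12 and an adjusted p of 0.0532.

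Cplx1 had 54.6, 61.1 and 56.8 CPM in Rosa against 63.0, 68.2 and 58.3 CPM in Camk2a, which overlapped, with a log2 fold change of 0.13 ± 0.070 and an adjusted p of 0.261. The interval of this difference ran from −0.01 to 0.27, far under the value in tChIP-Seq. For Syt1, the means were 180.6 ± 8.15 and 184.2 ± 6.37 CPM, and for Sv2a 96.6 ± 0.778 and 94.9 ± 1.80 CPM (SD, n = 3 each). The signs of the small values of Syt1 and Sv2a changed under some of the alternatives given in the closing section.

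Whether the line difference itself depended on the FLAG step was tested by the interaction over all 12 libraries. It was called for the same 7 members, all positive, against 13.7% of all regions called higher and 13.2% called lower. Snap25 had the largest value, 1.52 ± 0.090 on the log2 scale with an adjusted p of 9.98e-42, followed by Cplx1 with 1.38 ± 0.131, Cplx2 with 1.28 ± 0.162 and Syt1 with 1.22 ± 0.087. Sv2a, Syn2 and Stx1a had 0.85, 0.72 and 0.44, and the value of Stx1a lost its call without the first Rosa tChIP-Seq library (0.37, adjusted p of 0.0123) and when counts were thinned to equal depth (0.35, adjusted p of 0.1). Vamp2 and Rab3a were not called, with 0.15 ± 0.081 and 0.11 ± 0.123 and adjusted p-values of 0.13 and 0.543. The upstream Cplx2 region was called, with 0.33 ± 0.102 and an adjusted p of 0.00573.

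**Figure D3:**
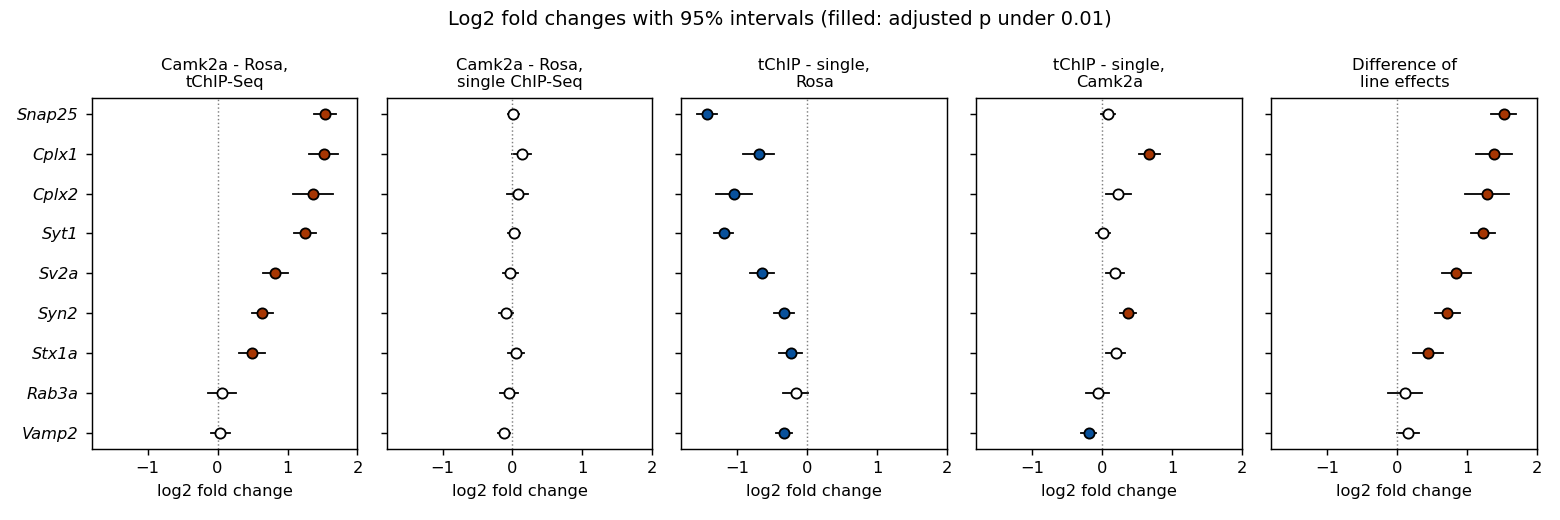
Log2 fold changes of the 9 genes (x axis) with 95% intervals as horizontal lines in the 5 comparisons, ordered from top to bottom by the line difference in tChIP-Seq. Filled points have an adjusted p under 0.01 in edgeR, and 7 genes are filled in the first and the last panel while none is filled in the second.

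The third comparison asked what the FLAG step does where almost all cells carry the tag. The paper found sites that differed in this contrast and proposes several possible biases, among them one towards longer DNA after the FLAG step. For that reason its own quantitative comparisons were mainly between the tChIP-Seq libraries of the lines. In Rosa tChIP-Seq against Rosa single ChIP-Seq, 8 presynaptic regions fell and none rose, against 22.5% of all regions called lower and 24.7% called higher. Snap25 fell by 1.43 on the log2 scale, from 175.2 ± 1.07 CPM to 64.3 ± 2.31 CPM (SD, n = 3), and only 0.139% of all regions had a lower value. Syt1 fell by 1.196, from 180.6 to 78.0 CPM, and Cplx2 fell by 1.04, from 47.5 to 22.8 CPM.

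The remaining decreases were smaller. Cplx1 fell by 0.70, Sv2a by 0.65, and Vamp2 and Syn2 by 0.34 each, with adjusted p-values from 2.27e-13 to 1.06e-05 for these 4, and Syn2 lost its call without the 40% lowest regions (−0.19, adjusted p of 0.0261). Stx1a fell by 0.24 with an adjusted p of 0.00925, close to the threshold, and lost its call in most of the alternatives. Rab3a was not called, with −0.17 ± 0.092, 67.6 ± 1.58 CPM in single ChIP-Seq and 59.9 ± 3.55 CPM in tChIP-Seq. In all 9 genes, every Rosa tChIP-Seq library was below every Rosa single ChIP-Seq library. The share of all regions that separate in this way was not calculated.

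Well covered regions as a whole were lower in this comparison, which bears on the smaller values. The median log2 fold change was −0.18 over the 8836 regions with at least as many counts as the lowest member, and 0.48 over the others. Beside that median, Rab3a lay slightly above and the other 8 members below. Among the 8836 regions, 41.3% were called lower, and among regions at TSSs of at least 5000 bp 75.7%, with a median of −0.37. With library totals in place of the TMM factors, the median of all regions went from −0.002 to 0.10 and the members kept negative values, from −1.33 for Snap25 to −0.07 for Rab3a. With the single ChIP-Seq counts thinned to the mean total of the tChIP-Seq libraries, 7 of the 8 decreases were still called, with log2 fold changes from −1.45 for Snap25 to −0.30 for Syn2, and Stx1a had −0.23 (adjusted p of 0.0667). The FLAG step and the share of cells that enter cannot be told apart here.

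The same step was compared in the Camk2a line. In Camk2a tChIP-Seq against Camk2a single ChIP-Seq, 2 presynaptic regions rose and 1 fell, against 25.3% of all regions called higher and 22.6% called lower. The number called higher was 4 with library totals in place of the TMM factors and 6 without the 40% of regions with the fewest counts, and none was called lower in that last setting or by the Wald test of DESeq2. Cplx1 rose from 63.2 ± 4.96 to 100.8 ± 3.10 CPM (SD, n = 3), a log2 fold change of 0.67 ± 0.074 with an adjusted p of 2.03e-15, and Syn2 rose from 111.6 ± 6.97 to 144.4 ± 2.24 CPM, a log2 fold change of 0.37 ± 0.059. Vamp2 fell by 0.20, from 167.8 ± 1.76 to 146.0 ± 11.1 CPM, with an adjusted p of 0.000919 that was 0.029 without the second Camk2a tChIP-Seq library.

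Most members that fell in Rosa were not called here. Snap25 had 177.1 ± 0.547 CPM before and 187.2 ± 4.73 CPM after the FLAG step, a log2 fold change of 0.08 with an interval from −0.02 to 0.18, and Syt1 had 184.2 and 185.9 CPM with an interval from −0.08 to 0.11. Sv2a and Stx1a had 0.19 each, with adjusted p-values of 0.0108 and 0.0153 just above the threshold, and all Camk2a tChIP-Seq libraries of both genes were above those of single ChIP-Seq. Cplx2 had 0.23 ± 0.092 with overlapping groups and Rab3a −0.07 ± 0.083. Among the 8836 well covered regions the median was −0.10, and 8 of the 9 members were above it.

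Ranked by level per kilobase of region, the members changed places between groups. This level also depends on how wide each region was drawn, so that the order of genes within a group is only a rough one. Vamp2 had the highest level in each group, from 40.7 ± 3.34 CPM per kb in Rosa tChIP-Seq to 51.7 ± 1.90 CPM per kb in Rosa single ChIP-Seq (SD, n = 3). In Rosa single ChIP-Seq it was followed by Rab3a with 33.7 and Sv2a with 32.2 CPM per kb, whose libraries did not overlap, and by a run from Snap25 (28.8) through Syn2 (28.3) and Syt1 (26.3) to Cplx2 (26.0) in which neighbours overlapped. Stx1a with 23.5 and Cplx1 with 21.5 CPM per kb came last and overlapped.

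In Rosa tChIP-Seq, Vamp2, Rab3a with 29.9 and Syn2 with 22.3 CPM per kb formed the top of the order without overlap, and Snap25 with 10.6, Syt1 with 11.3, Cplx2 with 12.4 and Cplx1 with 13.3 CPM per kb formed an overlapping lower end. In Camk2a tChIP-Seq the order was compressed. Vamp2 with 41.4 and Cplx1 with 37.7 CPM per kb overlapped at its head, each neighbour down to Snap25 with 30.8 overlapped the next, and Stx1a with 27.6 and Syt1 with 27.0 CPM per kb closed it. Cplx1 thus stood last in single ChIP-Seq of both lines and second in Camk2a tChIP-Seq. In each of these groups its libraries overlapped those of the gene placed before it.

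**Figure D4:**
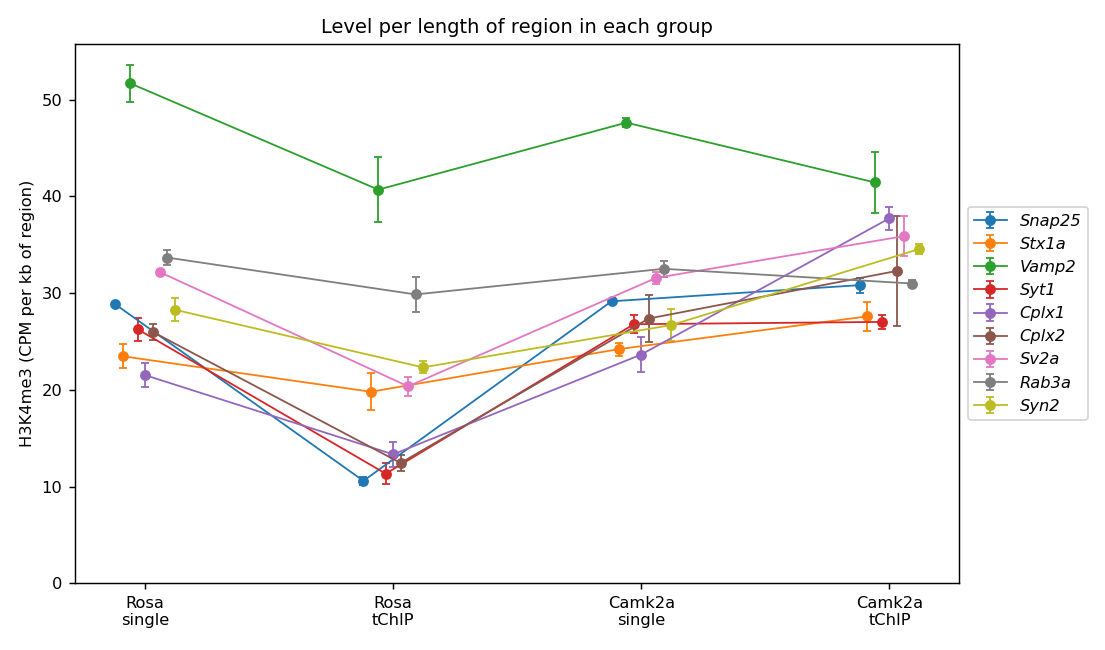
Mean H3K4me3 level in CPM per kb of region (y axis, from 0) of the 9 genes in the 4 groups (x axis), with whiskers for the SD of 3 libraries. Lines only join the values of 1 gene, and the values span 10.6 to 40.7 CPM per kb in Rosa tChIP-Seq and 27.0 to 41.4 CPM per kb in Camk2a tChIP-Seq.

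The ratio of 2 members within a library does not depend on any scaling between libraries. Pairs named here were chosen after their values were seen. The count at Snap25 divided by that at Vamp2 was 0.935, 0.95 and 1.0 in Rosa single ChIP-Seq, 0.467, 0.493 and 0.395 in Rosa tChIP-Seq, 1.05, 1.05 and 1.06 in Camk2a single ChIP-Seq and 1.16, 1.41 and 1.3 in Camk2a tChIP-Seq. None of the 4 groups overlapped another, with Rosa tChIP-Seq lowest and Camk2a tChIP-Seq highest. Cplx1 divided by Rab3a was 0.56, 0.57 and 0.656 in Rosa tChIP-Seq and 1.64, 1.65 and 1.58 in Camk2a tChIP-Seq, again well apart.

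Other pairs lay closer together. Snap25 divided by Syt1 was between 0.773 and 0.879 in Rosa tChIP-Seq and between 0.967 and 1.05 in Camk2a tChIP-Seq, without overlap. Cplx1 divided by Cplx2 was between 1.33 and 1.84 in the first and between 1.42 and 2.15 in the second, which overlapped. Of the 36 pairs of members, 29 had ratios that did not overlap between the lines in tChIP-Seq, against 6 in single ChIP-Seq. The share among pairs of other regions was not calculated, so these counts are no trait of the members. Over all regions, 17.0% were called higher and 14.6% lower between the lines in tChIP-Seq, against 0.928% and 1.22% in single ChIP-Seq. An exact permutation test (two-sided) of 3 against 3 libraries cannot give a p under 0.1, which each of the 29 pairs reached, so that none passes 0.05 before or after adjustment over the 36 pairs.

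Across the 12 libraries, Snap25 and Syt1 followed each other most closely, with a Pearson r of 0.99 between log2(CPM + 1) values, and Cplx1 and Vamp2 least, with 0.06. Vamp2 had an r of 0.35 and Rab3a one of 0.53 with the mean of the other 8 members, while the rest had between 0.86 and 0.98. These correlations describe 4 groups of 3 libraries that share their depth and preparation. The 5 regions at TSSs outside the set with the pattern most like the mean of the 9 members were those of Pacsin1 (r = 0.998, n = 12 libraries), Cacna2d1 together with Gm3510 (0.996), Rtn1 (0.995), Slc17a7 (0.995) and St8sia3 (0.995), with log2 fold changes between 0.98 and 1.65 in Camk2a against Rosa tChIP-Seq.

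The wider machinery was followed through 103 further genes of vesicle release, of which 95 had a region at a TSS, each taken by its region with the most counts. In Camk2a against Rosa tChIP-Seq, 54 of these were called higher and 3 lower, with a median log2 fold change of 0.41, beside a median of −0.01 over all regions at TSSs. This list too was chosen with earlier results known, and its counts do not test it as a set. The 3 highest were Syt13 (1.54 ± 0.101), Svop, a vesicle protein related to SV2 (1.47 ± 0.122), and Rph3a, rabphilin, an effector of Rab3 (1.41 ± 0.092). The 3 lowest were Syngr2 (−1.39 ± 0.110), whose region also holds the TSS of Afmid, the endosomal SNARE Vamp8 (−1.37 ± 0.182) and the priming factor Unc13b (−0.57 ± 0.129).

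By role, the 24 SNARE genes and regulators with a region had 11 called higher and 1 lower in this comparison, the 14 synaptotagmins and other calcium sensors 11 and 0, the 23 genes of vesicle proteins 12 and 1, the 20 genes of the active zone and of priming 13 and 1, and the 14 genes of vesicle recovery 7 and 0. Some listed genes share a region, such as Lin7b and Ppfia3. In single ChIP-Seq 1 of the 95 genes was called higher and none lower in Camk2a against Rosa, where 0.928% and 1.22% of all regions were called.

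Within the families of the members, paralogues did not all follow. Of the Snap genes, Snap47 (shared with Jmjd4) had a log2 fold change of 0.30 ± 0.088 in Camk2a against Rosa tChIP-Seq, and Snap29 (shared with Pi4ka) and Snap23, which is expressed broadly, had 0.20 and 0.01 and were not called. Among the vesicle SNAREs only Vamp8 was called, and Vamp1, Vamp3 and Vamp4 had 0.04, −0.20 and −0.12. Vamp2 was thus in the company of paralogues that did not rise.

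The synaptotagmins behaved otherwise. Syt13, Syt4, Syt16, Syt10, Syt5, Syt7, Syt2, Syt3 and Syt9 rose, from 0.45 ± 0.094 for Syt9 to 1.54 for Syt13, and Syt6 and Syt12 had 0.17 and 0.11 and were not called. Sv2b and Sv2c rose by 1.27 ± 0.097 and 1.22 ± 0.119, more than Sv2a, and the region of Sv2b also holds the TSS of 1500012K07Rik. Syn1 rose by 0.79 ± 0.113 and Syn3 had 0.12 ± 0.124. Among the Rab3 genes only Rab3c rose, by 1.03 ± 0.121, while Rab3b and Rab3d had 0.06 and 0.07, close to Rab3a. Cplx3 and Cplx4 had no region at a TSS.

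Cell type markers moved with these results. In Camk2a against Rosa tChIP-Seq, 17 of 17 general neuronal genes with a region were called higher, with a median log2 fold change of 1.15, as were 10 of 13 markers of excitatory neurons, with a median of 1.15 and with Slc17a7 at 1.65 ± 0.098. Of 12 markers of inhibitory neurons 9 were called lower, with a median of −0.999, among them Gad1 with −1.03 ± 0.184, while Gad2 had −0.55 ± 0.197 and was not called. Called lower were also 7 of 9 astrocyte markers, including Aldh1l1 with −2.86 ± 0.268, 5 of 7 oligodendrocyte markers and 9 of 9 endothelial markers, and the 1 microglial marker with a region had 0.02. Single markers went against their lists: the astrocyte gene Slc1a2, a glutamate transporter, had 0.38 ± 0.070, and Mbp, which encodes myelin basic protein, had 1.18 ± 0.094, both called higher and named after their values were seen. Mbp had 2 regions at TSSs, and only the one with more counts (chr18:82643953-82646548) was taken. The value therefore describes that start site of Mbp and not the gene as a whole. Without the FLAG step, in single ChIP-Seq, 3 of the 7 oligodendrocyte markers were also called lower in Camk2a against Rosa. Their median was −0.19, and 1.22% of all regions were called lower there. Of the 13 excitatory markers 1 was called higher there, and no marker of the other lists was called.

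Summed over each list, excitatory markers had 895 to 951 CPM in Rosa tChIP-Seq and 1827 to 1932 CPM in Camk2a tChIP-Seq, inhibitory markers 367 to 388 and 214 to 230 CPM, astrocyte markers 634 to 679 and 449 to 451 CPM, oligodendrocyte markers 361 to 373 and 246 to 264 CPM, and endothelial markers 463 to 488 and 175 to 181 CPM. The 9 presynaptic regions summed to 619 to 639 CPM in Rosa tChIP-Seq, 1088 to 1090 CPM in Camk2a tChIP-Seq, 990.5 to 1020 CPM in Rosa single ChIP-Seq and 974 to 1018 CPM in Camk2a single ChIP-Seq. The part of the cell mixture in the values of the presynaptic genes was not tested.

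In Rosa tChIP-Seq against Rosa single ChIP-Seq several marker lists had the opposite sign. General neuronal genes were called lower in 17 of 17 cases, with a median log2 fold change of −0.68, and so were 9 of 13 excitatory markers, whereas 7 of 9 astrocyte markers and 5 of 9 endothelial markers were called higher and none of the 12 inhibitory markers was called lower. Oligodendrocyte markers were an exception, with 3 of 7 called lower in this comparison too, none called higher and a median of −0.30. The presynaptic genes, with a median of −0.65 and 8 of 9 called lower, lay beside the general neuronal genes in this comparison.

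**Figure D5:**
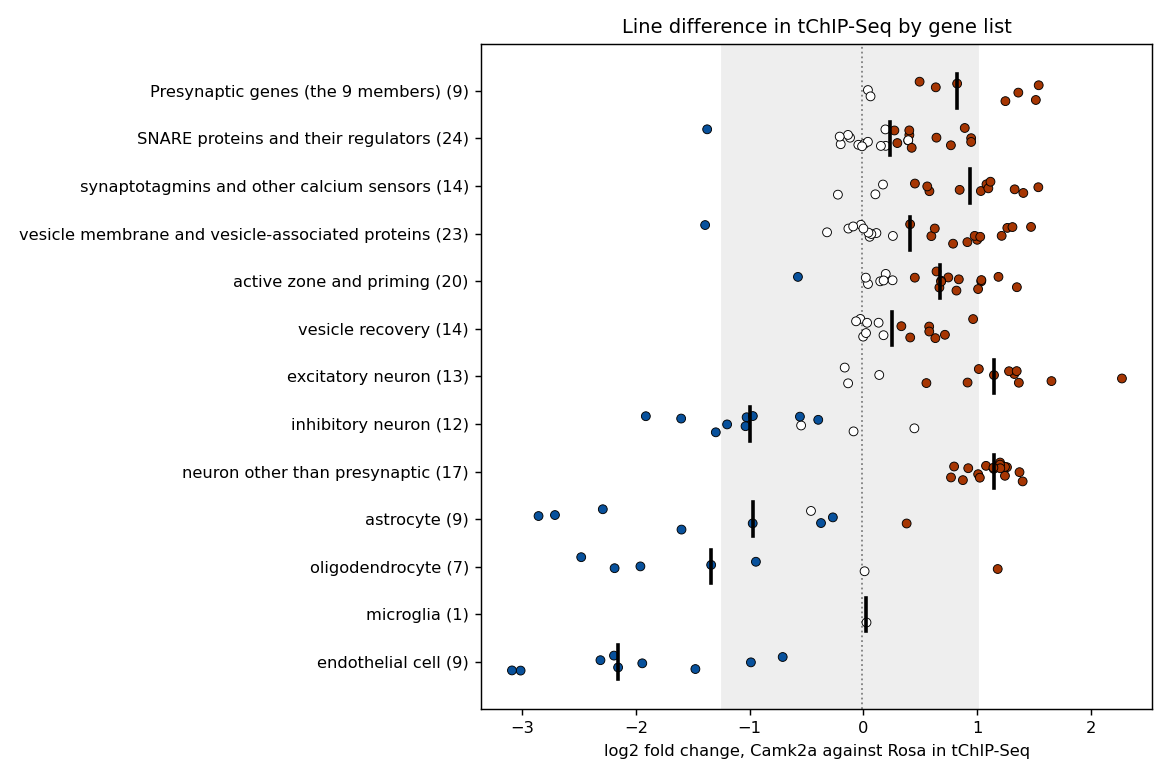
Log2 fold change of Camk2a against Rosa in tChIP-Seq (x axis) for the members, the further genes of vesicle release by role and the cell type markers (rows, with the number of genes). Points are genes, filled where the adjusted p is under 0.01 in edgeR (brown higher, blue lower), black bars are medians, and the grey band spans the 5th to 95th percentile of all regions at TSSs, from −1.24 to 1.01. The members have a median of 0.82, general neuronal genes one of 1.15 and endothelial markers one of −2.16.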

How the data were processed

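H3K4me3 single ChIP-Seq and tChIP-Seq libraries of cerebral cortex were used, 12 in all and 3 per group, and 12 input and FLAG libraries were not analysed here. Per the labels, groups follow genotype, antibodies and replicate. The authors trimmed reads of 80 nt with FASTX Toolkit, removed repeats with Bowtie2 2.1.0, mapped the rest to mm9 with Bowtie 1.0.0, discarded PCR duplicates (SAMtools), took MACS peaks and counted their reads by bedtools 2.17.0 (versions from the submitters' processing notes). The deposited values are raw read counts per region, identical regions in each library and no normalization. How the peak calls were merged is not given in the sources used here.

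Each comparison was fitted to its own 6 libraries, and the interaction to 12, with edgeR 4.0.16 under R 4.3.3 (TMM, glmQLFit, glmQLFTest, no filter on low counts). SEs are the size of the log2 fold change over the square root of F. Alternatives used DESeq2 1.42.0, other scalings, a minimum of 10 counts, leaving out the 40% lowest regions, 1 fit for all 12 libraries, a replicate block, thinning, leaving out each library, and regions within 1000 bp of a TSS. The scripts were tested on simulated data. Total counts per library, from 1457261 to 8644574, limit the precision, which is lowest in Rosa tChIP-Seq. The protocol pools 2 animals for a lysate, but whether the libraries of a group come from separate lysates is not given in the sources used here. The p-values measure the spread between libraries, which may or may not hold that between animals. No pair of libraries in a group was identical or within sampling noise, but the excess was small. The chi-square per degree of freedom was between 1.029 and 1.092, so that most of the spread is counting noise.

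The genes named are the 9 members, their paralogues (1 of which is not reported here), the 3 highest and 3 lowest of the further genes of vesicle release by the line difference in tChIP-Seq, 5 markers and the 5 regions most like the members. The members and all gene lists were chosen with earlier results of these data known.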

Additional observations from a re-analysis of the deposited data

Results flagged for a closer look

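The effect of the line differed between tChIP-Seq and single ChIP-Seq, by the interaction test of edgeR over 12 libraries, in 7 of the 9 presynaptic genes. The differences of the 2 line effects on the log2 scale were 1.52 for Snap25, 1.38 for Cplx1, 1.28 for Cplx2, 1.22 for Syt1, 0.85 for Sv2a, 0.72 for Syn2 and 0.44 for Stx1a, each positive. In tChIP-Seq all 3 Camk2a libraries of these 7 genes were above all 3 Rosa libraries, although the share of all regions that separate so was not calculated. For Vamp2 and Rab3a the difference was 0.15 and 0.11, with 95% intervals from −0.004 to 0.31 and from −0.13 to 0.35. Groups of 3 are too small to look for single libraries that stand apart.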

How the results depend on the processing

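The 7 calls in Camk2a against Rosa tChIP-Seq held under all 14 alternatives for each gene, with values for Snap25 from 1.47 to 1.56 and for Stx1a from 0.42 to 0.56. Over all members and comparisons, 635 of 675 values kept direction and side of the threshold, 16 lost a call, 11 gained one and 13 changed sign.

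Values that changed sign were all uncalled. In Camk2a against Rosa tChIP-Seq they were Vamp2 (−0.031 with library totals, and −0.0235 to 0.0989 with a library left out, negative without Rosa replicate 2 or Camk2a replicate 1) and Rab3a (−0.008 with library totals). In single ChIP-Seq they were Syt1 (−0.0088 to 0.0572 with a library left out, negative without Rosa replicate 3 or Camk2a replicate 1) and Sv2a (0.0011 with library totals, 0.0077 without the 40% lowest regions, 0.0045 with thinned counts). In tChIP-Seq against single ChIP-Seq in Camk2a they were Syt1 (−0.016 thinned, and −0.0023 to 0.0427 with a library left out, negative without single replicate 3 or tChIP replicate 2) and Rab3a (0.0078 without the 40% lowest regions).

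In that last comparison the number of members called higher, 2, was 4 with library totals and 6 without the 40% lowest regions, and the number called lower, 1, was 0 by the DESeq2 Wald test, 0 without the 40% lowest regions and 0 to 1 with each library left out, the 0 being without Camk2a tChIP-Seq replicate 2. Without Camk2a tChIP-Seq replicate 1, Cplx2 gained a call (0.36, adjusted p of 0.0014). The decrease of Stx1a in Rosa lost its call under 10 of 14 alternatives, without Rosa single ChIP-Seq replicate 2 or 3 and Rosa tChIP-Seq replicate 1 or 2 among them, with adjusted p-values up to 0.402.

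Calls over all regions fell without the 40% lowest regions, where fewer were tested, from 5682 to 3277 (lines, tChIP-Seq), 386 to 107 (lines, single), 8485 to 3636 (Rosa), 8617 to 4511 (Camk2a) and 4841 to 2841 (interaction). Thinning gave 175 (lines, single) and 3025 (interaction), the DESeq2 Wald test 34 (lines, single) and 5563 (Camk2a), and library totals 251 (lines, single). With a library left out, the lines in single ChIP-Seq had 118 to 296 calls, 118 without Camk2a replicate 2, 164 without Rosa replicate 3, 190 without Rosa replicate 2, 204 without Camk2a replicate 1 and 226 without Camk2a replicate 3. The cause was not tested.

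Library totals moved the share of calls that were higher from 53.9% to 43.7% (lines, tChIP-Seq), 43.3% to 77.3% (lines, single), 52.3% to 67.7% (Rosa) and 50.9% to 38.9% (interaction). For the lines in single ChIP-Seq it was 61.7% without the 40% lowest regions and 79.4% by the DESeq2 Wald test.

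Within a line, single ChIP-Seq and tChIP-Seq libraries share replicate numbers in their titles, and the main fits did not use this pairing. Same-numbered libraries had correlations of their deviations of at most 0.0518, from 0.0131 to 0.0518 in Rosa and from 0.00154 to 0.0254 in Camk2a. Such values cannot show whether the libraries were paired, since counting noise enters each deviation. With a replicate block, the 7 members stayed called in tChIP-Seq, 5468 regions were called there, and of the members' calls only that of Stx1a in Rosa was lost (−0.24, adjusted p of 0.0101).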
